A study of Vitis vinifera with 3 samples.

Results

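CHG regions outside gene models are stretches of the grapevine genome where the authors listed a difference in CHG methylation between 2 stages of berry growth and to which they assigned no gene model. CHG is a cytosine followed by any base but G and then by G. The members were the rows with no gene model, on numbered chromosomes, in the CHG tables of véraison and of maturity against first growth. They numbered 9368 of the 377997 regions in all 9 tables, 4579 at véraison and 4789 at maturity. Some places occur in both, 174 of them with equal start and end. The rule did not use the methylation levels, but every region was listed by the authors because its levels differed.

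Berries of Vitis vinifera, cultivar Fujiminori, were sampled at first growth (40 days after flowering), at véraison, when berries soften and colour (65 days), and at maturity (90 days). Whole-genome bisulfite sequencing was done on 1 library per stage, so no difference has a replicate error and none was tested between stages. The labels name fruits as the source of the DNA, give no tissue of the berry, and state pooling of berries for RNA only. A shift in the mix of cells and a change of methylation within cells cannot be told apart in such DNA.

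CHG methylation can sit on both strands, because a CHG site whose middle base is A or T reads as CHG on the opposite strand too. In Arabidopsis it is kept by the chromomethylase CMT3, which binds histone H3 methylated at lysine 9, and the histone methyltransferase KYP in turn binds methylated CHG, so that both marks maintain each other. It is found mainly over transposons and repeats, which in plant genomes lie largely between genes, and it is scarce in most expressed genes. DNA glycosylases such as ROS1 of Arabidopsis and DML2 of tomato cut methylated cytosines out, and DML2 is needed for tomato fruit to ripen.

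Outside gene models, CHG losses outnumbered gains at véraison, and at maturity the sides were closer to even. At véraison, 1989 of 4579 regions were higher than at first growth (43.4%, exact 95% interval 42.0 to 44.9%) and 2590 were lower, beside 40.5% higher and 59.5% lower among all CHG regions of that table. At maturity, 2225 of 4789 were higher (46.5%, interval 45.04 to 47.89%) and 2564 lower, beside 39.8% higher and 60.2% lower among all CHG regions. Among members whose difference was at or above the median size, gains were the majority by count, at 51.4% (49.3 to 53.5%) and 52.8% (50.8 to 54.8%). The intervals are Clopper-Pearson intervals that cover counting over regions only, and neighbouring regions are not independent.

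Over all members, the gains were larger than the losses, in percentage points. Gained regions at véraison began at a median CHG level of 24% and reached 56%. Their median gain was 32 points (quartiles 20 and 43). Lost regions had medians of 43% and 18%, with a median difference of -25 points. At maturity the gained regions had medians of 23% and 56%, and the lost regions 45% and 17.5%, with a median difference of -27 points. A change of at least 25 points was seen in 65.8% of gains and 52.7% of losses at véraison, and in 65.8% of gains and 58.0% of losses at maturity. Lost regions were the longer ones, with a median of 178 bp against 147 bp for gained regions at véraison, and 184 bp against 149 bp at maturity. Losses covered 532 kb and gains 346 kb at véraison, and 548 kb and 389 kb at maturity, with overlapping regions counted each time.

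How a region could move was bounded by what had been listed. In all 9 tables, every one of the 377997 regions had a lower level at or below 50% of its higher level, once rounding of each level to 1 percentage point was allowed for. No label or header states such a limit. In the CHG table of véraison against first growth, the lower level was between 40% and 50% of the higher one in 58.0% of regions, so most listed differences lay close to this limit. A region that began above 50% could therefore be listed only as a loss. Of 1004 members above 50% at first growth in the véraison table, 0 were higher later, and of 1082 in the maturity table, 0 were.

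**Figure D1:**
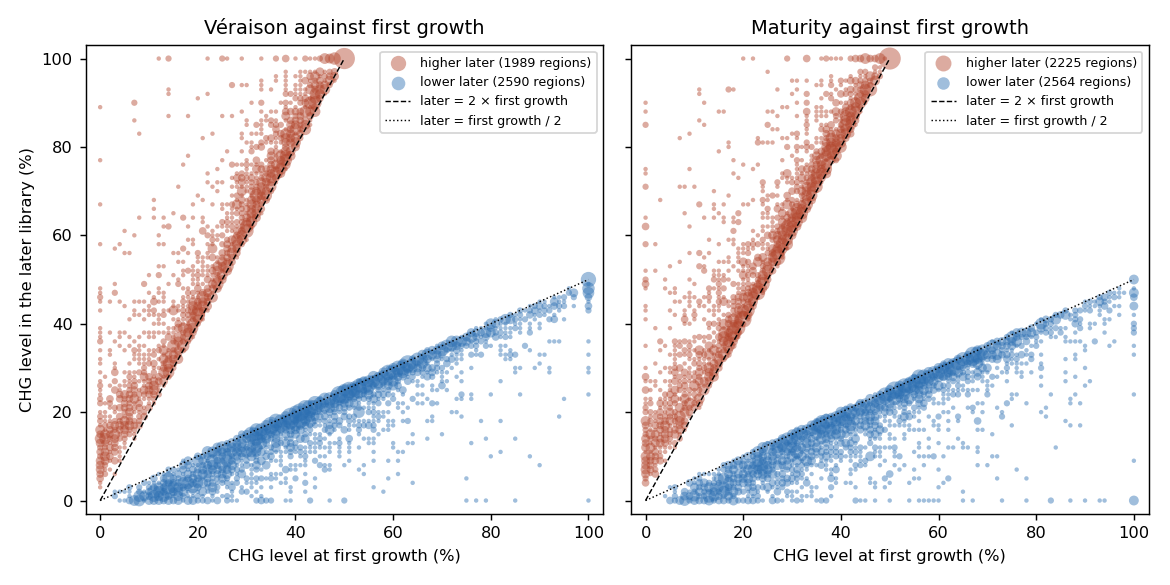
CHG level at first growth (x axis, %) against the level in the later library (y axis, %) for the regions outside gene models, with point area proportional to the number of regions at that pair of levels. Gains (1989 and 2225) lie above the dashed line and losses (2590 and 2564) below the dotted line apart from rounding, and the wedge between the lines is empty.

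By starting level, the share of gains fell from nearly all to none, which the limit fixes in part. Of the 479 véraison members that began below 10%, 90.2% were gains (interval 87.2 to 92.7%), with a median gain of 15 points. Members that began at 10 to 25% were gains in 56.4% of 1034 cases. Of the 1990 that began at 25 to 50%, 47.8% were gains, with a median gain of 41 points and a median loss difference of -22 points. From 50 to 75%, 23 of 780 were gains, each going from 50% to 100%, and from 75% upward 0 of 296 were (exact upper bound 1.24%). At maturity the shares in the same classes were 92.5%, 63.0%, 50.9%, 2.98% and 0%. These shares describe the list and do not show that methylated places lost methylation in general.

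The higher of the 2 levels of a region treats gains and losses alike, since the limit holds both ways. Seen this way, the most methylated regions were mostly gains and the moderately methylated ones mostly losses. Of the 873 véraison members whose higher level was at least 75%, 577 were gains (66.1%, interval 62.8 to 69.2%). These regions had reached 75% or more at véraison in 577 cases, whereas 296 had been at 75% or more at first growth. Members whose higher level was 25 to 50% were gains in 34.6% of 1588 cases (32.2 to 37.0%), and those at 50 to 75% in 41.9% of 1304. At maturity the share of gains was 67.0% of 922 at 75% or more (63.9 to 70.1%), 38.8% of 1625 at 25 to 50% and 44.2% of 1460 at 50 to 75%. A larger share at 75% or more was not particular to the members. CHG regions with a gene model had 53.8% gains there and 30.1% at 25 to 50% at véraison, and 36.3% and 27.9% at maturity. For CG regions outside gene models the véraison shares were 52.2% and 11.1%.

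Among the members, the rise in the share of gains was steep between 60% and 80%. At véraison, gains made up 34.0% of members with a higher level of 50 to 60%, 44.9% at 60 to 70%, 58.8% at 70 to 80% and 69.1% at 90 to 100%. On each of the 19 chromosomes, in both tables, the share of gains was greater among members at 75% or more than among those below. The first growth library enters both tables, so the 2 results are not independent. The table of maturity against véraison does not use that library. In it, gains were 50.3% of the 592 regions outside gene models at 75% or more (46.2 to 54.4%). At 25 to 50% they were 55.6% of 1389 (52.9 to 58.2%). Over all its 3868 regions outside gene models they were 53.8% (52.2 to 55.4%), beside 49.7% among all its CHG regions. There the share at 75% or more exceeded that below 75% on 7 of 19 chromosomes. A property of the first growth library and a property of that stage cannot be told apart with 1 library.

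**Figure D2:**
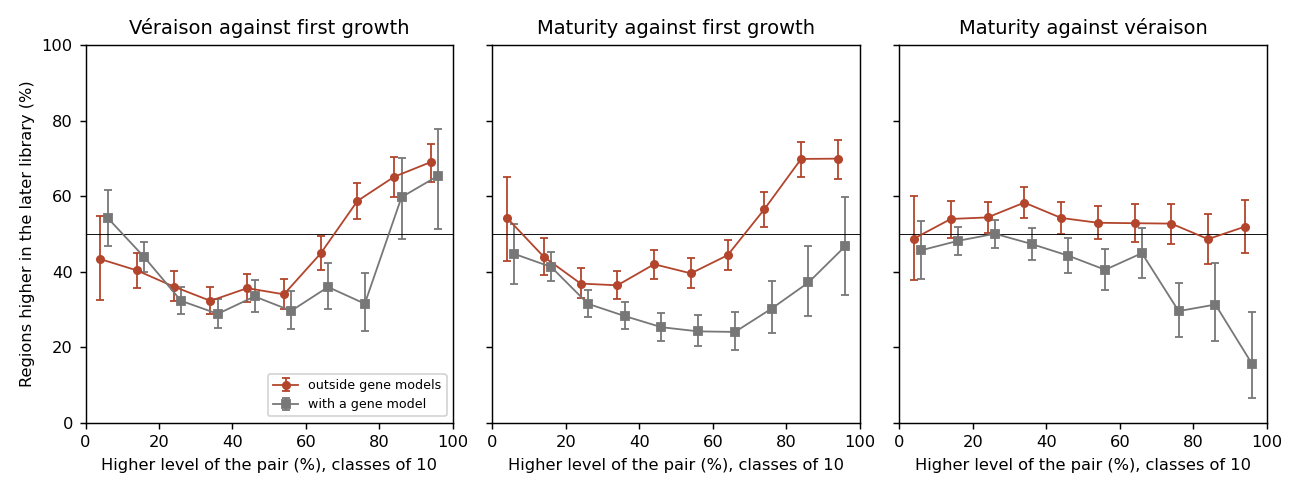
Share of CHG regions higher in the later library (y axis, %) by the higher of the 2 levels (x axis, classes of 10 percentage points), outside gene models and with a gene model, with exact 95% intervals over regions. Outside gene models, gains reach 69.1% and 70.0% in the top class against first growth, and 51.9% between véraison and maturity.

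Highly methylated members were also short. The median length was 104 bp for véraison members at 75% or more and 189.5 bp for those at 25 to 50%. A level of exactly 100% in the library that was higher was listed for 106 members at véraison, of median length 95 bp, and for 99 at maturity, of median length 86 bp. The pair 50% and 100% occurred 23 times as a gain and 12 times as a loss at véraison, and 25 times and 5 times at maturity. The tables give no read depth, so the number of reads behind such levels is unknown.

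CHG regions with a gene model were lower and, over all levels, less often gains. Their median first growth level was 25% in the véraison table, against 33% outside gene models, and their share of gains 36.5% against 43.4%, a difference of 6.95 points (Newcombe interval 4.78 to 9.10). At maturity the shares were 31.2% and 46.5%, a difference of 15.2 points (13.2 to 17.3). At a higher level of 75% or more, the outside share exceeded that with a gene model by 12.3 points at véraison (4.82 to 19.9) and by 30.8 points at maturity (24.0 to 37.1). At 10 to 25% the intervals included 0, with -3.13 points at véraison (-7.76 to 1.56) and 2.99 points at maturity (-1.75 to 7.75). Below 10% they also included 0, and at véraison the regions with a gene model had the larger share of gains, 54.3% against 43.4% (-10.9 points, -23.2 to 1.97). At maturity the difference below 10% was 9.50 points (-3.67 to 22.2). Between véraison and maturity, gains were 53.8% outside gene models and 45.1% with a gene model, a difference of 8.75 points (6.46 to 11.0). At a higher level of 75% or more, that difference was 24.2 points (16.6 to 31.1), and below 10% its interval included 0. These are differences between regions of the same pair of libraries, with no test over samples.

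By length, short regions were more often gains than long ones. In the véraison table the share of gains was 52.7% of 347 regions below 60 bp (47.3 to 58.1%), 48.4% of 810 at 60 to 100 bp, 46.9% of 1665 at 100 to 200 bp, 37.2% of 1448 at 200 to 400 bp and 30.7% of 309 at 400 bp or more (25.6 to 36.2%). At maturity it went from 58.0% of 388 below 60 bp (52.9 to 63.0%) to 32.4% of 340 at 400 bp or more (27.4 to 37.6%). The order of both series was downward at each step. Comparing below 100 bp with 200 bp or more, the difference was 13.7 points at véraison (Newcombe interval 10.0 to 17.3) and 17.9 points at maturity (14.3 to 21.5), and it was positive on 19 and on 17 of 19 chromosomes.

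Length and level went together, and the size of the length difference depended on which level was matched. A higher level of 75% or more was found in 43.5% of véraison members below 60 bp and in 4.21% of those at 400 bp or more. Matched on a first growth level of 25 to 50%, short minus long was larger, at 39.2 points at véraison (34.0 to 44.1) and 43.6 at maturity (38.6 to 48.2). The limit places gains and losses of that class at different higher levels, so the higher level is not held equal. Matched on the higher level, a choice made after seeing the data, it was smaller. Among members with a higher level of 25 to 50%, it was 3.22 points at véraison (-3.09 to 9.84) and 12.5 points at maturity (5.75 to 19.2). Among those at 50 to 75% it was 8.27 points (1.58 to 14.9) and 8.52 points (2.04 to 14.9). Among those at 75% or more it was 6.42 points (-2.43 to 15.6) and 11.5 points (3.13 to 20.1). In the table of maturity against véraison the shares of gains outside gene models ran from 56.6% below 60 bp (50.8 to 62.3%) to 52.1% at 400 bp or more (45.5 to 58.6%).

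By distance, gains took a larger share the farther a region lay from a listed gene model. Distances were measured to the nearest of the gene models named in any table, and models without a listed region are not known here, so each distance is an upper bound on that to the nearest annotated gene. Members that share bases with a listed model, 61 at véraison and 75 at maturity, were counted as within 1 kb. The near and far shares were not computed without them. The median distance was 13.2 kb at véraison (quartiles 4.09 and 32.0 kb) and 12.9 kb at maturity. Gained regions lay farther out, at a median of 15.4 kb against 11.4 kb for lost regions at véraison, and 15.1 kb against 10.9 kb at maturity.

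In the véraison table, gains were 33.6% of 440 regions within 1 kb (29.2 to 38.3%), 34.6% of 497 at 1 to 3 kb, 42.2% of 1034 at 3 to 10 kb, 44.6% of 1394 at 10 to 30 kb and 50.3% of 1214 at 30 kb or more (47.5 to 53.2%). At maturity the shares were 36.5%, 40.3%, 43.7%, 48.0% and 53.3% in the same order. Members within 3 kb were gains less often than those at 10 kb or more at véraison (near minus far share -13.1 points, Newcombe interval -16.7 to -9.49) and at maturity (-11.9 points, -15.5 to -8.32). The far share was the greater on 18 of 19 chromosomes in each table.

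The distance difference kept its direction in each matched class, and was larger in some and smaller in others. Matched on a first growth level of 25 to 50%, near minus far was -20.5 points at véraison (-25.9 to -14.8) and -27.0 at maturity (-32.3 to -21.4). As with length, the limit places gains and losses of that class at different higher levels, so the higher level is not held equal. The matches on the higher level were again chosen after seeing the data. Among members with a higher level of 25 to 50%, near minus far was -7.90 points at véraison (-13.5 to -2.02) and -9.89 at maturity (-15.5 to -4.02). At 50 to 75% it was -17.9 (-24.2 to -11.0) and -13.4 (-19.8 to -6.58). For those at 75% or more it was -7.60 (-17.3 to 1.59) and -10.0 (-19.6 to -0.842). Regions within 1 kb had a median higher level of 40% at véraison, against 53% at 30 kb or more, and were longer (187.5 against 149 bp). Between véraison and maturity the share of gains was 55.8% within 1 kb (50.6 to 60.9%) and 54.0% at 30 kb or more (51.0 to 57.1%).

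**Figure D3:**
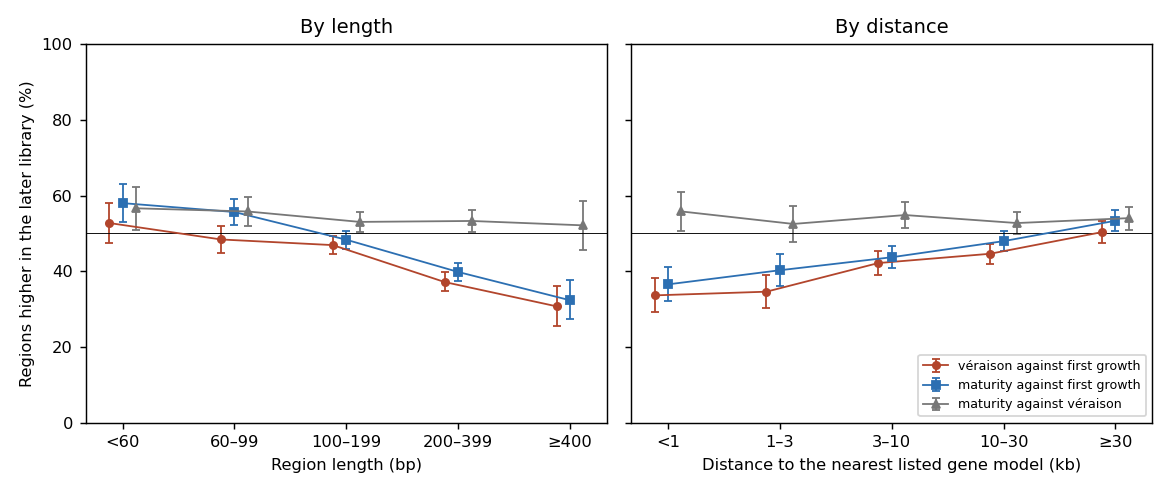
Share of CHG regions outside gene models that were higher in the later library (y axis, %), by region length (left, bp) and by distance to the nearest listed gene model (right, kb), with exact 95% intervals over regions. Against first growth the share falls with length and rises with distance, from 33.6% to 50.3% at véraison and from 36.5% to 53.3% at maturity, and the points of maturity against véraison lie between 52.1% and 56.6%.

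The side of the gene showed a smaller difference. Within 3 kb, gains were 31.9% of 445 regions upstream (27.6 to 36.5%) and 35.3% of 431 downstream (30.8 to 40.0%) at véraison, and 35.9% of 482 (31.6 to 40.4%) and 41.3% of 414 (36.5 to 46.2%) at maturity. The intervals of the sides overlapped in both tables.

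The line between outside and inside gene models followed the end coordinate of a region. In the véraison table, all 3415 overlaps in which the region ended inside a listed model had that model assigned, and 0 of 67 overlaps in which the region ran past the end of the model did. As a result 61 véraison members and 75 maturity members share bases with a listed gene model by their coordinates. Without them the share of gains was 43.4% and 46.6%.

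Across chromosomes, chromosome 17 stood lowest. Its share of gains was 27.4% of 190 regions at véraison (21.2 to 34.3%) and 30.7% of 192 at maturity (24.3 to 37.8%). The highest were chromosome 18 at véraison, with 50.9% of 332 (45.4 to 56.4%), and chromosome 15 at maturity, with 52.6% of 308 (46.9 to 58.3%). Below a higher level of 75%, chromosome 17 was again lowest, at 25.5% and 28.0%. Between véraison and maturity it had 52.1% gains among 140 regions (43.5 to 60.7%), within the range of 46.0 to 63.7% over the chromosomes of that table. Members were densest on chromosome 15, with 14.1 per Mb at véraison and 15.2 at maturity, and sparsest on chromosome 8, with 7.33 and 7.42.

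**Figure D4:**
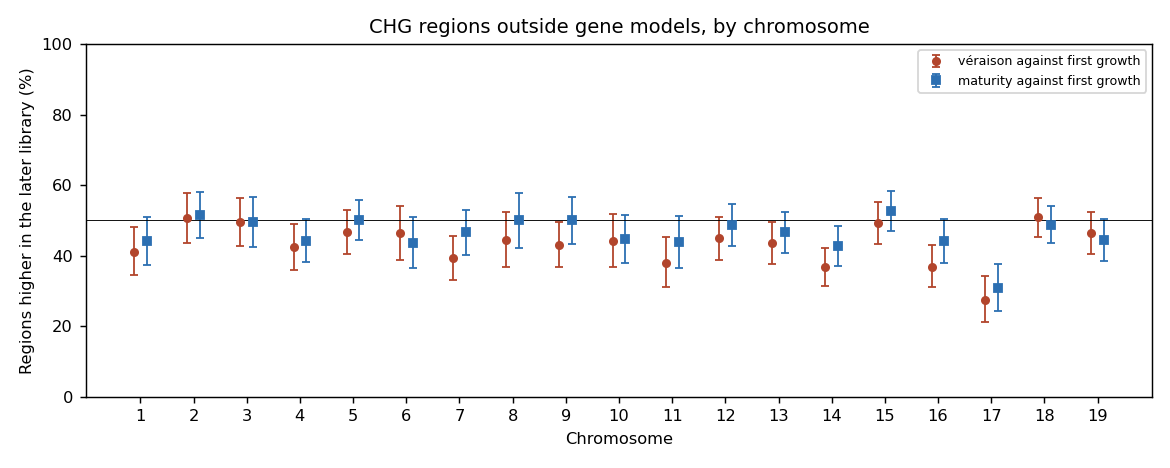
Share of CHG regions outside gene models that were higher in the later library (y axis, %) on each of the 19 chromosomes (x axis), with exact 95% intervals over regions. Chromosome 17 is lowest in both tables, at 27.4% and 30.7%.

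Members were scattered, with a median gap of 47.0 kb to the next one at véraison and 46.6 kb at maturity, and close neighbours tended to move the same way. Of 274 neighbouring pairs at véraison that did not overlap and lay within 1 kb, 65.3% had the same direction, compared with 51.7% of 3384 pairs more than 10 kb apart. At maturity the shares were 63.8% of 318 and 54.0% of 3460. Some regions overlap within a table, in 379 pairs at véraison, of which 4 had opposite directions. The window of 1 Mb with most members lay on chromosome 16, between 4 and 5 Mb, in both tables, with 44 members at véraison (12 gains, 32 losses) and 53 at maturity (18 gains, 35 losses), beside a median of 10 per window that held any. Its regions were far from listed models, at a median of 47.1 kb and 30.4 kb.

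Among regions of at least 200 bp, the largest gains and losses crossed most of the scale and lay mostly far from listed models. On chromosome 12, from 16166288 to 16166638, the CHG level went from 7% to 90%, 74.8 kb from the nearest listed model, VIT_12s0034g00550.t01. A region on chromosome 3, from 13601872 to 13602081, went from 0% to 77%. Another, on chromosome 19, from 17456273 to 17456474, went from 22% to 92%, 3.24 kb upstream of VIT_19s0093g00480.t01. These 3 were the largest gains at véraison, and none overlapped a CG or CHH region listed for the same stages.

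The largest véraison losses included a place that was lost in both later libraries. On chromosome 16, from 8830604 to 8830838, the level dropped from 94% to 19% at véraison, and the maturity table lists 8830606 to 8830838 with a drop from 94% to 0%. It lay 57.2 kb downstream of VIT_16s0013g01750.t01. On chromosome 4, from 13460150 to 13460390, the level went from 75% to 0% at véraison, 4.41 kb upstream of VIT_04s0043g00270.t01. On chromosome 18, from 16812667 to 16813103, it went from 95% to 23%, 515 kb from any listed model.

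At maturity the largest gains lay on chromosome 14, from 10014471 to 10014682 (0% to 88%), then chromosome 1, from 13505465 to 13505698 (11% to 93%), and chromosome 11, from 9028409 to 9028681 (22% to 100%). Besides the chromosome 16 place, the largest losses were on chromosome 10, from 13975796 to 13976006 (100% to 0%), and chromosome 12, from 14093627 to 14093889 (84% to 12%). Among these extremes, p in the authors' deposited table ran from 8.63e-08 for the chromosome 14 gain to 0.00217 for the véraison gain on chromosome 19.

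The smallest p-values belonged to longer regions with more moderate differences. The gain with the smallest p at véraison, 3.82e-42 in the authors' deposited table, lay on chromosome 13, from 16241207 to 16241747, 9.38 kb upstream of VIT_13s0047g00360.t01, with 5% and 56%. The véraison loss with the smallest p, 1.57e-27 in the authors' deposited table, lay on chromosome 9, from 10450213 to 10450675, with 30% and 5%. At maturity the loss with the smallest p, 8.94e-34 in the authors' deposited table, was a region of 986 bp on chromosome 1, from 7816956 to 7817941, with 67% and 32%.

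One place gained in all 3 contexts. On chromosome 8, from 18691210 to 18691911, 2.77 kb upstream of VIT_08s0007g04710.t01, CHG stood at 16% in the first growth library, 49% in the véraison library and 63% in the maturity library. It was the longest gain that overlapped a CG region in both tables, and the maturity gain with the smallest p (4.14e-38 in the authors' deposited table). The overlapping CG region of the véraison table, from 18691191 to 18691590, went from 18% to 47%, and that of the maturity table, from 18691191 to 18691745, from 34% to 70%. In the CHH data of each pair, 5 regions overlapped it. All were higher later, with gains of 8 to 12 points at véraison and 10 to 18 points at maturity.

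The longest members were losses. At maturity this was a region of 1031 bp on chromosome 16, from 2695942 to 2696972, 1.78 kb upstream of VIT_16s0039g02470.t01, with 59% and 18%. At véraison it was a region of 974 bp on chromosome 17, from 5166464 to 5167437, with 33% and 9%, overlapped in the maturity table by losses from 39% to 8% and from 35% to 16%. The longest losses that overlapped a CG region lay on chromosome 12, from 2936426 to 2937237, with 26% and 7% CHG and 61% and 30% CG at véraison, and, at maturity, chromosome 16, from 16159989 to 16160842, with 33% and 5% CHG and 31% and 8% CG. The member farthest from a listed model, 625 kb away, was a véraison gain on chromosome 11, from 11381174 to 11381325, from 26% to 53%. At maturity the farthest, 539 kb away, was a loss on chromosome 11, from 11668341 to 11668490, from 53% to 25%.

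Losses overlapped CG regions of the same pair of stages more often than gains did. At véraison 13.5% of losses (350 of 2590, interval 12.2 to 14.9%) and 5.48% of gains (109 of 1989, 4.52 to 6.57%) shared at least 1 bp with a listed CG region, and at maturity 13.3% and 6.07% did. The difference remained among regions of 200 bp or more, with 17.8% of losses and 7.27% of gains at véraison and 17.7% and 7.02% at maturity. Directions matched in nearly all pairs, since 117 of 120 CG regions that overlapped véraison gains were higher, and 393 of 394 that overlapped losses were lower. Over all CG regions outside gene models in that table, 17.3% were higher. The CG regions over losses had medians of 42.5% at first growth and 19% at véraison, beside 38% and 14% for the CHG regions. Gains with a higher level of 75% or more rarely overlapped a CG region, in 1.56% of 577 cases at véraison. Losses at that level did so in 6.08% of 296 cases, also below the share of all losses. Members at that level were short, with a median of 104 bp. Below 100 bp, 3.13% of gains and 6.36% of losses overlapped a CG region at véraison. Between véraison and maturity gains overlapped a CG region more often than losses did, at 8.60% (7.43 to 9.88%) and 5.94% (4.88 to 7.13%). The CG regions listed outside gene models also differed in direction, with 553 higher and 2636 lower at véraison against first growth. Between véraison and maturity 817 were higher and 745 lower (52.3% higher). How far the overlap shares follow the number of CG regions listed each way was not tested. Levels of both contexts come from the same libraries.

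CHH regions listed against first growth showed the reverse order. At véraison 12.1% of gains (240 of 1989, interval 10.7 to 13.6%) and 5.98% of losses (155 of 2590, 5.10 to 6.97%) overlapped a CHH region, and at maturity 9.03% and 6.08% did. Among regions below 100 bp the véraison shares were 7.65% of gains and 1.55% of losses, and among those of 200 bp or more 19.6% and 10.9%. At maturity they were 6.53% and 1.15% below 100 bp, and at 200 bp or more they were 12.5% of gains (10.2 to 15.2%) and 10.7% of losses (8.96 to 12.6%), with overlapping intervals. Between véraison and maturity 1.73% of gains (1.21 to 2.39%) and 1.68% of losses (1.14 to 2.39%) overlapped a CHH region. How far these shares follow the number of CHH regions listed each way was not tested. Of the CHH regions that overlapped véraison gains, 317 of 318 were higher. Of those that overlapped losses, 140 of 176 were higher too, and thus opposite to the CHG region they touched. Both counts stand beside 99.7% higher among all CHH regions outside gene models at véraison against first growth. The other 36 CHH regions over losses were lower, like the losses. This was a larger share than among all CHH regions outside gene models, where 515 of 156732 were lower. Over all 176 overlaps with losses, of either CHH direction, the median CHH levels were 8% and 20%, and the CHG losses had medians of 49% and 20.5%.

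A small set could be followed through all 3 stages, 174 members whose start and end were equal in both tables. Of these, 66 were higher and 108 lower in both later libraries, and the first growth level was identical in both tables for all of them. The 66 gains had medians of 28%, 64.5% and 65% in stage order, and the 108 losses had 42%, 14% and 13.5%. Véraison and maturity levels lay within 5 points of each other in 52 of the gains and 87 of the losses. Whether equal coordinates select places where the later libraries were alike was not tested.

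**Figure D5:**
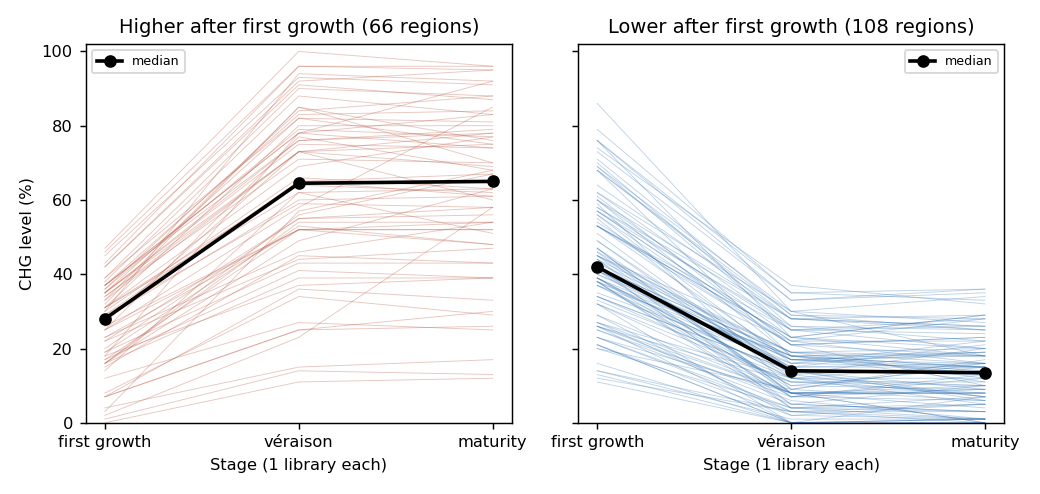
CHG level (y axis, %) at the 3 stages (x axis) for the 174 regions outside gene models with equal coordinates in both tables, as thin lines for single regions and a black line for the median. The median of the 66 gains goes from 28% to 64.5% and 65%, and that of the 108 losses from 42% to 14% and 13.5%.

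Within this set, the largest gains of at least 200 bp by the difference between maturity and first growth lay on chromosome 12, from 19973683 to 19973970 (3%, 57% and 68% in stage order), then chromosome 10, from 13373308 to 13373664 (18%, 78% and 74%), and chromosome 1, from 4457786 to 4458086 (16%, 56% and 67%). The chromosome 10 region lay 3.38 kb upstream of VIT_10s0042g00460.t01, and a CHH region at its edge, from 13373631 to 13373678, went from 0% to 46% at véraison. By the same difference, the largest losses lay on chromosome 5, from 6090149 to 6090349 (86%, 30% and 18%), then chromosome 1, from 9394693 to 9395127 (68%, 18% and 11%), and chromosome 11, from 5007438 to 5007644 (60%, 18% and 13%). On chromosome 1, the overlapping CG region from 9394626 to 9394977 dropped from 73% to 18% in both later libraries. On chromosome 5, 4.31 kb upstream of VIT_05s0020g04330.t01, CHG and CHH went opposite ways at véraison, with a CHH region from 6090296 to 6090341 at 2% and 28%.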

How the data were processed

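Whole-genome bisulfite sequencing of 3 libraries, 1 per stage, was the source of the data. The submitters' processing notes list BSMAP 2.73, an aligner for bisulfite reads. The caller of regions, its thresholds, the build, the annotation and whether starts count from 0 or 1 are each not given in the sources used here. As deposited by the authors, average methylation levels were fractions, per the file headers, rounded to 1 percentage point, and they were turned into percent here. Their p-values, per the file headers a chi-square statistic, lay at or under 0.00999823 in the CHG tables and were read as p. No read depth is given, so no interval was put on a level.

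Differences are the later level minus the earlier one. Lengths count both ends. Shares of gains carry exact Clopper-Pearson 95% intervals and differences of shares Newcombe intervals (Python 3.11.15, pandas 2.3.3, scipy 1.17.1, statsmodels 0.14.6), and no test was run. Distance and overlap routines were checked on simulated intervals. Of 9490 gene models named in the tables, 0 matched the RefSeq list of assembly ASM3070453v1, so no gene symbol or sequence is given. A model counted as assigned where the authors listed it. Named regions followed a fixed rule: the 3 largest gains and losses of at least 200 bp, the smallest p each way, the longest, the farthest, the longest that overlap a CG region, those with equal coordinates in both tables, and the densest window of 1 Mb. The regions and classes were chosen with earlier results of these data known. The split by the higher level was added after the levels had been seen. Alternatives kept larger differences, smaller p or longer regions, added unnumbered sequences, joined neighbours within 200 bp, and changed the level or distance used.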

Additional observations from a re-analysis of the deposited data

How the results depend on the processing

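No paired analysis was possible because each stage has 1 library. The following values moved beyond the 95% interval of the reported value. The share of gains was 51.4% at véraison and 52.8% at maturity among members with at least the median absolute difference, so gains then outnumbered losses. It was 41.5% and 44.7% when p was limited to 1/10 of its maximum, and 37.9% and 39.5% among members of at least the median length. The share of gains below 25% minus that at 50% or more was 65.0 points at véraison and 70.0 at maturity by first growth level, and 97.7 and 97.5 among the larger differences. It reversed to -27.2 and -24.3 by the mean of both levels, and to -12.8 and -10.6 by the higher level, a setting chosen after seeing the data. A region above 50% at first growth could be listed only as a loss, which builds the first order into the list. Among the larger differences, a region that began below 25% could not lose as much as the cut required. All 243 and 272 such members were therefore gains, as fixed by the setting.

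For members that began at 25 to 50%, the short minus long difference was 39.2 and 43.6 points and the near minus far difference -20.5 and -27.0. The limit places gains and losses of that class at different higher levels, so it does not hold the higher level equal. At a higher level of 25 to 50% the short minus long difference was 3.22 and 12.5, at 50 to 75% 8.27 and 8.52, and at 75% or more 6.42 and 11.5. Near minus far at véraison was -7.90 (25 to 50%), -17.9 (50 to 75%) and -7.60 (75% or more), and at maturity -9.89, -13.4 and -10.0, which stayed within the interval. Among the larger differences it was -16.8 and -16.1, and among the longer regions -7.28 at maturity. The matched higher levels were chosen after seeing the data. Joining neighbours, adding other sequences, measuring from midpoints and using models of the CHG tables only left each value they were run on within its interval.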
